A study of Mus musculus with 6 samples.

Results

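Genes of DNA replication and mitosis were examined in mouse colon tumors, across 2 genotypes and in each tumor. The set is a fixed list of 50 genes, 27 that serve or precede S phase and 23 that serve G2 and M phase, and 49 of the 50 were paired with a probe set of a single gene symbol, among 19938 genes with such a set. All 27 S-phase genes and 22 of the 23 G2/M genes were measured. The exception, Ccnb1, was not analysed here. Where a gene had several probe sets, the one with the highest mean over the 6 arrays was used.

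The 3 double knockout tumors came from mice of the genotype CDX2P-G19Cre;Apcflox/flox;Tgfbr2flox/flox, and the 3 Apc knockout tumors from mice of the genotype CDX2P-G19Cre;Apcflox/flox. All mice were C57BL/6J and 3 weeks old. Both groups therefore lack the Wnt pathway suppressor Apc in recombined cells, and the genotypes differ in Tgfbr2, the receptor gene of the growth-inhibiting TGF-β pathway. Cre is driven by a fragment of the human CDX2 promoter and is made only after a chance change in a run of guanines restores its reading frame, so recombination is mosaic within the colon epithelium. Tumor tissue was cut out by laser microdissection, and RNA of 1 sample was hybridized to 1 array. The sample titles number the 3 arrays of a group as replicates and do not state whether each came from a separate animal.

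A dividing cell first licenses its origins by loading the MCM helicase, then builds forks with polymerases, clamps and clamp loaders, and draws on a supply of deoxynucleotides. Cyclin E and cyclin A with Cdk2 drive entry into S phase, and E2F factors transcribe many of these genes. Mitotic genes are transcribed later, through FoxM1 and B-Myb, and encode the kinases, motors and checkpoint proteins that condense, align and part the chromosomes. In the colon, dividing cells lie in the lower crypt, and loss of Apc keeps the Wnt program of these cells active.

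The proximal promoters of both classes are shown because E2F sites and CHR elements are the known control sites of S-phase and mitotic genes. RefSeq promoters (GRCm38.p6) were matched for 39 of the 50 members, Ccnb1 included, giving 41 promoters. The 160 bases before the transcription start of 5 members are printed 5′ to 3′ on the strand of the gene. Capitals mark CCAAT, the E2F words TTTCCCGC, TTTGGCGC and TTTCGCGC, and the CHR words TTTGAA and TTTAAA, each also as its reverse complement. In Mcm5 and in the upstream site of Mcm6, TTTGGCGC and TTTCGCGC overlap on opposite strands and appear as 1 run of capitals. These 5 were picked after the matches were known. They lie at chr1:128359706-128359865 (Mcm6, minus strand), chr8:75109349-75109508 (Mcm5, plus strand), chr10:69352913-69353072 (Cdk1, minus strand), chr11:99024190-99024349 (Top2a, minus strand) and chr7:122159275-122159434 (Plk1, plus strand).
Mcm6: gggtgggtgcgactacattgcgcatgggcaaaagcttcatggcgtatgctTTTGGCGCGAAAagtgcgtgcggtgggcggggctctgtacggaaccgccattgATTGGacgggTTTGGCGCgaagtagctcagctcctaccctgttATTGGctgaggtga
Mcm5: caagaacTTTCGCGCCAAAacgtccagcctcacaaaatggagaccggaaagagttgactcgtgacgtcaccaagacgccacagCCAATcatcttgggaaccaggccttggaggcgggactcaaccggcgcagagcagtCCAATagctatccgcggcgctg
Cdk1: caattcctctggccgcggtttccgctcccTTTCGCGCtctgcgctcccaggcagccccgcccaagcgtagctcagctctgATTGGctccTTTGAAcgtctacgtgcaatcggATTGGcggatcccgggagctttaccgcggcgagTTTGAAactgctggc
Top2a: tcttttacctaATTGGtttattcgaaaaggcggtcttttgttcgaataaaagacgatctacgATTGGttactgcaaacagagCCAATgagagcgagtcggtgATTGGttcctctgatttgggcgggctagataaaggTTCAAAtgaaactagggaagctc
Plk1: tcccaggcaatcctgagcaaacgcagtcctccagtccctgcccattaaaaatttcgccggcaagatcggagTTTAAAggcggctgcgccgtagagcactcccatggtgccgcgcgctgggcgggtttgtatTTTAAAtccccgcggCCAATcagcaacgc

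In the 250 bases before the start, an E2F word stood in 8 of 23 S-phase promoters (34.8%), in 1 of 18 G2/M promoters (5.56%) and in 1.53% of all 32851 promoters of the table. The single G2/M promoter with such a word was that of Cdk1, the mitotic kinase, which also held CHR words. A CHR word stood in 10 of 18 G2/M promoters (55.6%), in 4 of 23 S-phase promoters (17.4%) and in 25.2% of all promoters. CCAAT was present in 17 of 23 S-phase promoters (73.9%) and 16 of 18 G2/M promoters (88.9%), against 33.8% of all promoters. A match is a description of the letters and does not show that a factor binds there.

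The values are log2 signals after RMA, and the median signal of an array lay between 7.68 and 7.80. Double knockout tumor 2 stood apart from the other arrays, with correlations of 0.956 to 0.968 over all probe sets, against 0.98 to 0.988 among the other 5. The log2 signal of Tgfbr2 was 10.98, 10.35 and 10.47 in double knockout tumors 1, 2 and 3 and 11.35, 11.37 and 11.09 in Apc knockout tumors 1, 2 and 3, so the groups did not overlap. The difference was −0.67 on the log2 scale, with a standard error of 0.19 and an adjusted limma p of 0.821. Where the probes lie with respect to the deleted exons was not determined, and this level therefore does not check the genotype.

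No member passed the adjusted threshold between the genotypes. With limma over 19506 probe sets, 0 sets had an adjusted p under 0.05 (0.00%, smallest adjusted p = 0.606), members included. At an unadjusted p under 0.05, 347 sets were higher in double knockout tumors (1.78%) and 745 were lower (3.82%). Of the 49 members, 1 was higher at that level, E2f2, and 0 were lower. The methods' t-test gave 0 members in either direction at the same level, beside 409 sets higher and 589 lower of all 19506. It gave 0 sets after adjustment. Groups failed to overlap with double knockout tumors higher in 1024 sets (5.25%) and with double knockout tumors lower in 1354 sets (6.94%), while for all 49 members the groups overlapped.

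Tumors of the same genotype were far apart. The range over the 6 tumors had a median of 1.33 log2 units over the members, from 0.77 for Cdc25a to 1.87 for Rrm2, against 0.54 over all sets tested. The SD within a group had a median of 0.56 over the members and 0.19 over all sets. Apc knockout tumor 3 had the lowest signal in 37 of 49 members (75.5%), and double knockout tumor 2 was the lowest in the other 12 (24.5%). Over all sets tested these tumors were the lowest in 19% and 28.3%, so the share of double knockout tumor 2 was not raised. The lowest place in a gene goes to a single tumor, and Apc knockout tumor 3 held it in most members. This share therefore does not show how low double knockout tumor 2 was. The highest tumor was Apc knockout tumor 2 in 25 members (51%) and double knockout tumor 3 in 22 (44.9%), against 16.6% and 14.7% of all sets. In bulk tissue such as this, fewer dividing cells and less RNA of these genes per cell cannot be told apart.

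**Figure D1:**
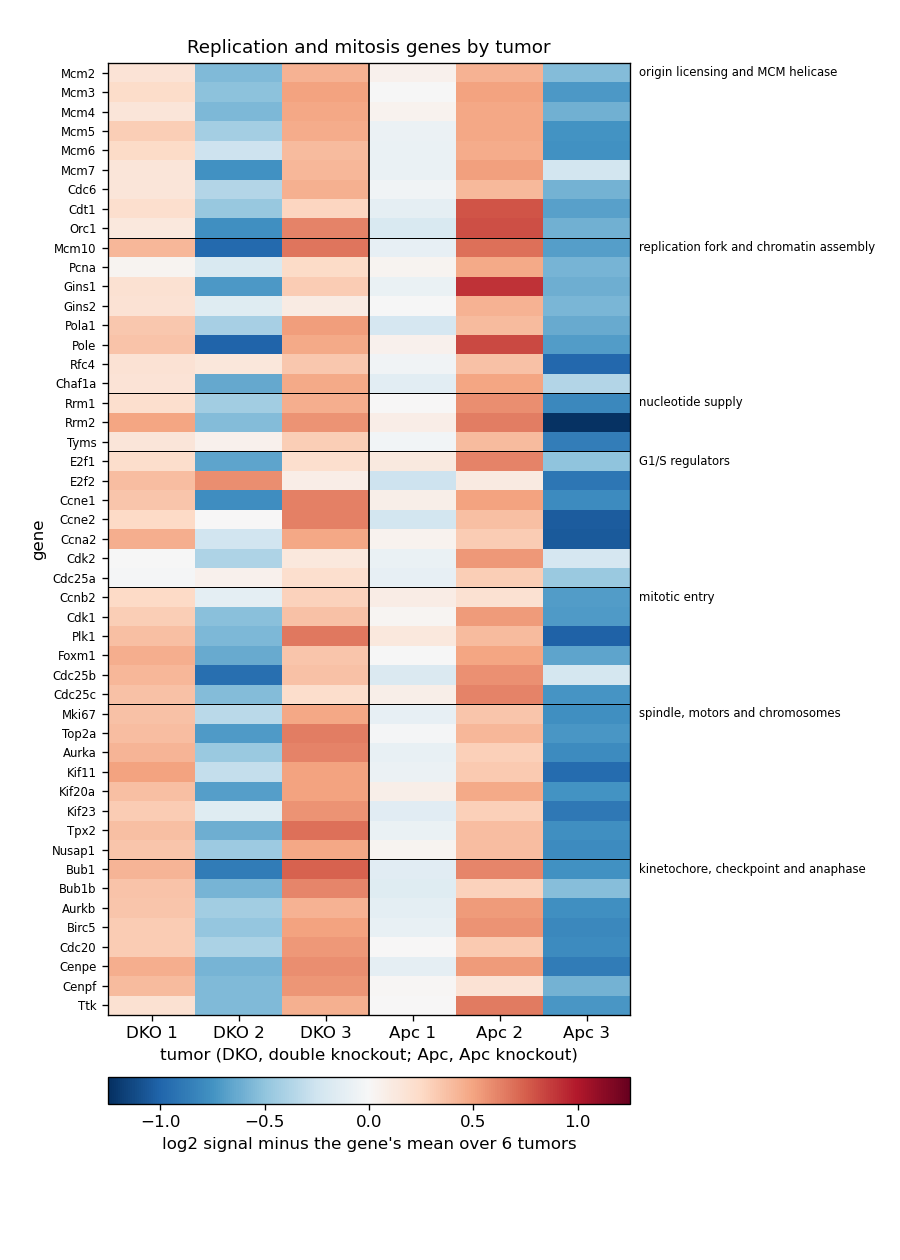
Log2 signal of each of the 49 measured members (rows, grouped by role) in each of the 6 tumors (columns), as the difference from that gene's mean over the 6 tumors. Red is above and blue below the mean. The columns of double knockout tumor 2 and Apc knockout tumor 3 are blue in nearly every row, and those of double knockout tumor 3 and Apc knockout tumor 2 are red. Double knockout tumor 1 is also above the mean in nearly every row, by less on average.

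Double knockout tumor 2 and Apc knockout tumor 3 held the lowest pair of values in 44 of 49 members (89.8%), in 22 of 27 S-phase genes (81.5%) and in 22 of 22 G2/M genes. The same pair was lowest in 8.27% of all sets tested. This pair was chosen after the values were seen, so its count is a description. The 5 exceptions were Tyms, Rfc4, E2f2, Ccne2 and Cdc25a, all S-phase genes. In each of them Apc knockout tumor 3 was still the lowest.

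Origin licensing and the MCM helicase held 9 members with a median log2 fold change, double knockout minus Apc knockout, of 0.05. Positive values were found in 7 of them and negative values in Orc1 and Mcm7, from −0.13 (Mcm7) to 0.25 (Mcm6), and 0 of 9 passed the test. Mcm6, a subunit of the helicase ring, had log2 signals of 10.28, 9.79 and 10.44 in double knockout tumors 1, 2 and 3 and of 9.96, 10.51 and 9.29 in Apc knockout tumors 1, 2 and 3. Apc knockout tumors held both the highest and the lowest value, and the log2 fold change was 0.25 (standard error 0.34). Mcm5, another ring subunit, was at 10.41, 9.68 and 10.57 in double knockout tumors, against 10.03, 10.59 and 9.36 in Apc knockout tumors, a log2 fold change of 0.22 (standard error 0.37). Its order of tumors was that of Mcm6. Cdc6, the loader of the helicase, was at 7.95, 7.44 and 8.25 against 7.76, 8.21 and 7.21, again with overlapping groups and a log2 fold change of 0.16 (standard error 0.31). Mcm2, a ring subunit widely stained as a proliferation marker, was at 10.66, 9.94 and 10.92 against 10.54, 10.92 and 9.95, with a log2 fold change of 0.04 (standard error 0.34). In Mcm2 the low tumor of each genotype was at nearly the same level, and so was the high one. Cdt1, which loads the helicase together with Cdc6, and Orc1, of the origin recognition complex, had log2 fold changes of 0.01 and −0.01. Mcm3 and Mcm4 were at 0.14 and 0.05.

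The 8 genes of the replication fork and chromatin assembly had a median log2 fold change of 0.06, with 6 positive and 2 negative, and 0 of 8 passed the test. Rfc4, a subunit of the clamp loader, had log2 signals of 9.73, 9.69 and 9.89 in double knockout tumors, against 9.51, 9.92 and 8.57 in Apc knockout tumors. All 3 values of the double knockout lay close together and inside the range of the Apc knockout tumors, with a log2 fold change of 0.44 (standard error 0.34). Pola1, the catalytic subunit of the polymerase that starts each strand, was at 9.22, 8.46 and 9.40 against 8.67, 9.27 and 8.25, a log2 fold change of 0.30 (standard error 0.34). Gins2, part of the GINS complex of the active helicase, was at 9.21, 8.88 and 9.13 against 9.02, 9.46 and 8.46, with 0.09 (standard error 0.26). Both genes were lowest in Apc knockout tumor 3, and their groups overlapped. Pcna, the sliding clamp, was at 12.25, 12.03 and 12.46 against 12.25, 12.69 and 11.64, a log2 fold change of 0.06 (standard error 0.28). For Pcna the highest and the lowest tumor were both Apc knockout tumors. Gins1, the partner of Gins2, and Pole, the leading-strand polymerase, had log2 fold changes of −0.14 and −0.12. Mcm10, a fork assembly factor, was at 0.07 and Chaf1a, a histone chaperone subunit, at 0.01. Pole, at 8.61, and Mcm10, at 8.11, were lowest in double knockout tumor 2, as was Chaf1a.

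Nucleotide supply was represented by 3 genes, all with a positive log2 fold change (median 0.34) and none past the test. Rrm2, the regulated subunit of ribonucleotide reductase, had log2 signals of 10.74, 9.70 and 10.80 in double knockout tumors, against 10.33, 10.88 and 9.01 in Apc knockout tumors. Its range of 1.87 was the widest of the 49 members, and the log2 fold change was 0.34 (standard error 0.54). Rrm1, the large subunit, was at 11.61, 10.97 and 11.85 against 11.40, 11.98 and 10.59, with 0.15 (standard error 0.40). Tyms, thymidylate synthase, was at 9.96, 9.86 and 10.11 against 9.77, 10.20 and 8.94, with 0.34 (standard error 0.31). In Tyms double knockout tumor 2 was above Apc knockout tumor 1, unlike in most members.

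Among 7 regulators of the G1/S transition, 5 log2 fold changes were positive and 2 negative, with a median of 0.17. E2f2, an E2F transcription factor, had log2 signals of 9.01, 9.21 and 8.71 in double knockout tumors, against 8.37, 8.74 and 7.72 in Apc knockout tumors. Apc knockout tumor 2 was just above double knockout tumor 3, so the groups overlapped. The log2 fold change of 0.70 (standard error 0.28, 95% confidence interval 0.01 to 1.38) was the largest of the members. Its unadjusted limma p was 0.0466 and its adjusted limma p was 0.821. The two-sided exact permutation test gave p = 0.2, where 3 tumors against 3 cannot go below 0.1. E2f2 was also the sole member with its highest value in double knockout tumor 2. With a tumor left out, its log2 fold change ran from 0.42 (without Apc knockout tumor 3) to 0.93 (without Apc knockout tumor 2), and it was no longer past an unadjusted p of 0.05 without double knockout tumor 1 or 2 or Apc knockout tumor 1 or 3.

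Ccne2, cyclin E2, had log2 signals of 9.13, 8.88 and 9.51 against 8.65, 9.25 and 7.84, a log2 fold change of 0.59 (standard error 0.37). Its groups overlapped, and it was past an unadjusted p of 0.05 once Apc knockout tumor 2 was left out, at 0.93. Ccna2, cyclin A2, was at 11.47, 10.78 and 11.50 against 11.06, 11.34 and 9.97, with 0.46 (standard error 0.40). Ccna2 differed from its own mean most in Apc knockout tumor 3. Ccne1, cyclin E1, was at 0.13 and Cdc25a, the phosphatase that activates Cdk2, at 0.17. E2f1 (−0.16) and Cdk2 (−0.17), the kinase bound by cyclins E and A, were on the negative side.

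Of the 7 genes of mitotic entry, 6 were measured, none past the test, and their median log2 fold change was 0.11. Plk1, the polo kinase, had log2 signals of 11.18, 10.25 and 11.47 in double knockout tumors, against 10.94, 11.20 and 9.80 in Apc knockout tumors, a log2 fold change of 0.32 (standard error 0.46). The distance from double knockout tumor 3 to Apc knockout tumor 3, 1.67 log2 units, was the widest range among the G2/M genes. Ccnb2, cyclin B2, was at 11.39, 11.02 and 11.43 against 11.24, 11.34 and 10.45, with 0.27 (standard error 0.27), and had the narrowest range of the G2/M genes, 0.98. Foxm1, the transcription factor of the mitotic program, was at 9.77, 8.69 and 9.66 against 9.31, 9.81 and 8.66, with 0.11 (standard error 0.39). In Foxm1 the lowest tumors of both genotypes were nearly level. Cdk1, the mitotic kinase, was at 0.10, and the phosphatases that activate it, Cdc25b and Cdc25c, at −0.10 and 0.02. Cdc25b was the only G2/M gene with a negative value.

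The 8 genes of the spindle, motors and chromosomes all had positive log2 fold changes, with a median of 0.33, and 0 of 8 passed the test. Kif23, a motor of the central spindle, had log2 signals of 10.40, 9.93 and 10.64 in double knockout tumors, against 9.94, 10.38 and 9.18 in Apc knockout tumors. Double knockout tumor 2 and Apc knockout tumor 1 were level, and the log2 fold change of 0.49 (standard error 0.34) was the largest of the G2/M genes with all 6 tumors. Without double knockout tumor 2, Kif11 was above Kif23, at 0.74 against 0.69. It was also just above without double knockout tumor 3 (0.34 against 0.33) or Apc knockout tumor 1 (0.55 against 0.54). Kif11, the motor that parts the spindle poles, was at 10.77, 9.97 and 10.77 against 10.20, 10.60 and 9.31, with 0.47 (standard error 0.38). Mki67, the Ki-67 antigen of dividing cells, was at 11.56, 10.86 and 11.68 against 11.09, 11.54 and 10.43, with 0.35 (standard error 0.34, 95% confidence interval −0.49 to 1.18). The low tumors of Mki67 were again double knockout tumor 2 and Apc knockout tumor 3. Top2a, the topoisomerase that untangles sister chromatids, was at 11.66, 10.57 and 11.91 against 11.26, 11.69 and 10.55, with 0.21 (standard error 0.43). The mean of the probe sets of Top2a gave 0.04. Aurka, the spindle pole kinase, was at 0.39 and its activator Tpx2 at 0.31. Nusap1, a microtubule-binding protein, was at 0.25 and the cytokinesis motor Kif20a at 0.13.

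The 8 genes of the kinetochore, checkpoint and anaphase also all had positive log2 fold changes, with a median of 0.25, from 0.05 (the checkpoint kinase Ttk) to 0.31 (Cdc20), and 0 of 8 passed the test. Cdc20, the activator of the anaphase-promoting complex, had log2 signals of 9.58, 8.86 and 9.80 in double knockout tumors, against 9.26, 9.59 and 8.47 in Apc knockout tumors, with a standard error of 0.36. Cenpf, a kinetochore protein of G2 and M phase, was at 9.62, 8.67 and 9.77 against 9.23, 9.40 and 8.63, a log2 fold change of 0.27 (standard error 0.35). In Cenpf the lowest tumors of both genotypes were nearly level, and it was past an unadjusted p of 0.05 once double knockout tumor 2 was left out, at 0.61. Bub1b, the checkpoint protein BubR1, was at 9.96, 9.03 and 10.22 against 9.46, 9.90 and 9.08, with 0.26 (standard error 0.36). Its lowest tumor was double knockout tumor 2, as for Bub1, the related checkpoint kinase, at 0.19. Aurkb and Birc5, partners in the chromosomal passenger complex, were at 0.23 and 0.22, and Cenpe, the kinetochore motor, at 0.30.

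**Figure D2:**
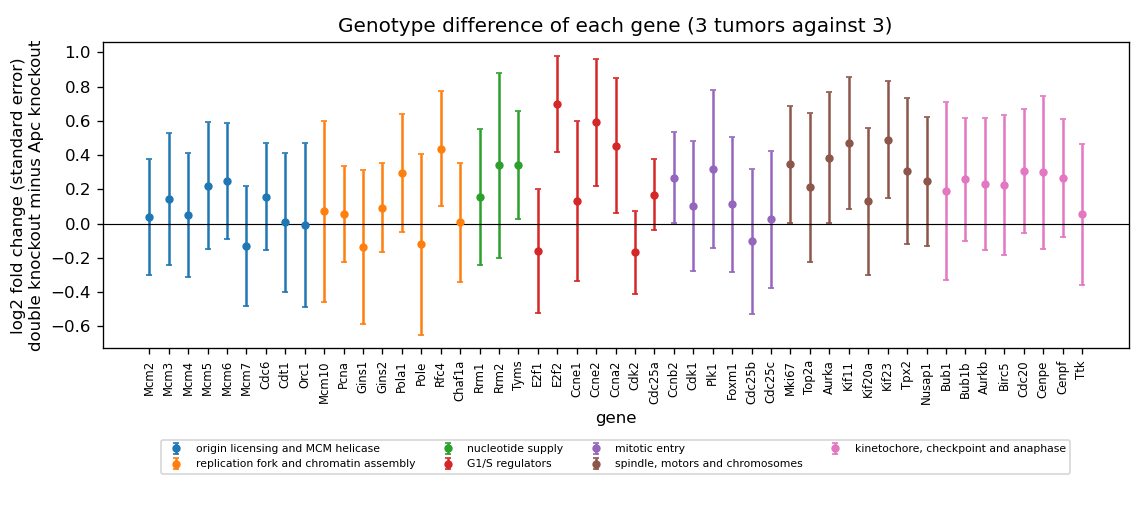
Log2 fold change of each of the 49 measured members, double knockout minus Apc knockout, from limma on 3 tumors against 3 (y axis, log2 units). Points are fold changes, bars are standard errors and colors are roles. The points run from −0.17 (Cdk2) to 0.70 (E2f2), and most bars reach or cross 0.

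Over all 27 S-phase genes, 21 log2 fold changes were positive and 6 negative, with a median of 0.13 (1.10-fold). Over the 22 G2/M genes, 21 were positive and 1 negative, with a median of 0.25 (1.19-fold). The median over all sets tested was 0.01. All these genes were read in the same 6 tumors, so the counts are not separate observations of the genotype.

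The phases were then set against each other within each tumor. The score of a list in a tumor is the mean over its genes of the log2 signal minus the mean of that gene over the 6 tumors. The S-phase score was 0.23, −0.41 and 0.40 in double knockout tumors 1, 2 and 3 and −0.05, 0.51 and −0.68 in Apc knockout tumors 1, 2 and 3. The G2/M score was 0.37, −0.52 and 0.51 in double knockout tumors, against −0.04, 0.43 and −0.74 in Apc knockout tumors. Both scores had Apc knockout tumor 3 lowest, double knockout tumor 2 next and Apc knockout tumor 1 in the third place. At the top, Apc knockout tumor 2 had the highest S-phase score and double knockout tumor 3 the highest G2/M score.

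**Figure D3:**
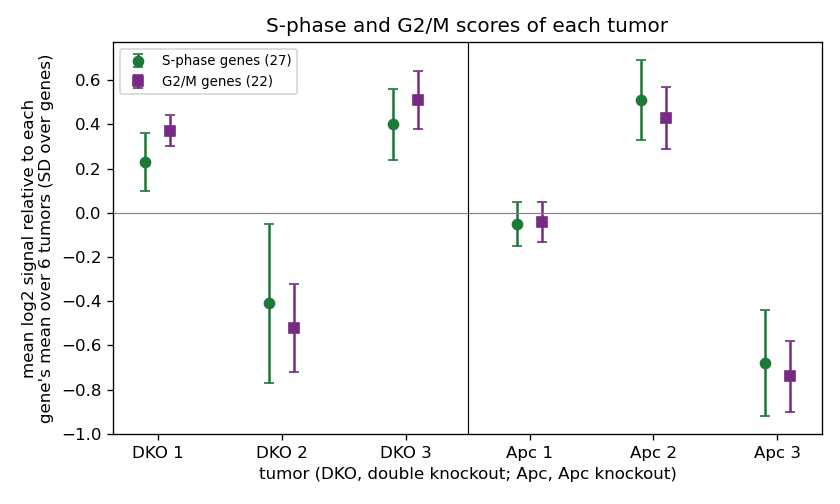
S-phase score (green circles, 27 genes) and G2/M score (purple squares, 22 genes) of each tumor, in log2 units relative to the mean of each gene over the 6 tumors. Bars are SDs over genes. The scores of a tumor lie close together, from about −0.7 in Apc knockout tumor 3 to 0.51 in Apc knockout tumor 2 and double knockout tumor 3.

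By genotype, double knockout tumors had an S-phase score of 0.07 ± 0.42 (SD, n = 3), against −0.07 ± 0.60 (SD, n = 3) for Apc knockout tumors. The corresponding G2/M scores were 0.12 ± 0.56 (SD, n = 3) and −0.12 ± 0.59 (SD, n = 3). Both differences, 0.15 and 0.23, were smaller than the SD within either group. The S-phase score minus the G2/M score was −0.14, 0.12 and −0.10 in double knockout tumors, against −0.01, 0.08 and 0.06 in Apc knockout tumors. The groups overlapped, with means of −0.04 ± 0.14 (SD, n = 3) and 0.04 ± 0.05 (SD, n = 3). Their difference of −0.09 was smaller than the pooled SD of 0.105, and it ran from −0.17 (without double knockout tumor 2) to −0.04 (without double knockout tumor 1).

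Within a genotype, single tumors differed by about as much for S-phase as for G2/M genes. Apc knockout tumor 2 was above Apc knockout tumor 3 in 27 of 27 S-phase genes, with a median difference of 1.23 log2 units (2.34-fold), and in 22 of 22 G2/M genes, with a median of 1.19 (2.28-fold). Over all sets tested the median of this difference was −0.03. Double knockout tumor 3 was above double knockout tumor 2 in 26 of 27 S-phase genes (median 0.88, 1.84-fold) and in 22 of 22 G2/M genes (median 0.99, 1.99-fold), against a median of 0.02 over all sets. The S-phase gene below was E2f2, at −0.50. Double knockout tumors 1 and 3 differed less, with medians of −0.18 for S-phase and −0.15 for G2/M genes. These are pairs of single arrays and carry no test.

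The sign of the genotype difference turned on single tumors. Without Apc knockout tumor 3, the median log2 fold change was −0.19 for S-phase genes, with 5 positive and 22 negative, and −0.09 for G2/M genes, with 6 positive and 16 negative. Without Apc knockout tumor 2 the medians were 0.40 and 0.52, and all 49 members were positive. Without double knockout tumor 2 they were 0.38 and 0.59, with 1 S-phase gene negative. Leaving out double knockout tumor 3 gave −0.05 and 0.05, and leaving out double knockout tumor 1 gave 0.05 and 0.14. Without Apc knockout tumor 1, which lay nearest to the mean, they were 0.16 and 0.29.

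The genes with the larger positive values moved in the same way. Once Apc knockout tumor 3 was left out, log2 fold changes were 0.05 for Mki67, 0.16 for Kif23, 0.11 for Kif11, 0.06 for Rfc4, 0.06 for Pola1, 0.05 for Ccna2, 0.22 for Ccne2, 0.04 for Cenpf and 0.06 for Bub1b. Those of Rrm2 (−0.19), Plk1 (−0.10), Tyms (−0.01), Cdc20 (−0.01) and Ccnb2 (−0.01) fell below 0. Without Apc knockout tumor 2, log2 fold changes were 0.61 for Mki67, 0.77 for Kif23, 0.75 for Kif11, 0.73 for Rfc4, 0.73 for Ccna2 and 0.93 for Ccne2. Leaving out double knockout tumor 2 gave the highest value for Pola1 (0.58), Cenpf (0.61) and Bub1b (0.61), and leaving out double knockout tumor 3 the lowest for Bub1b (0.02).

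**Figure D4:**
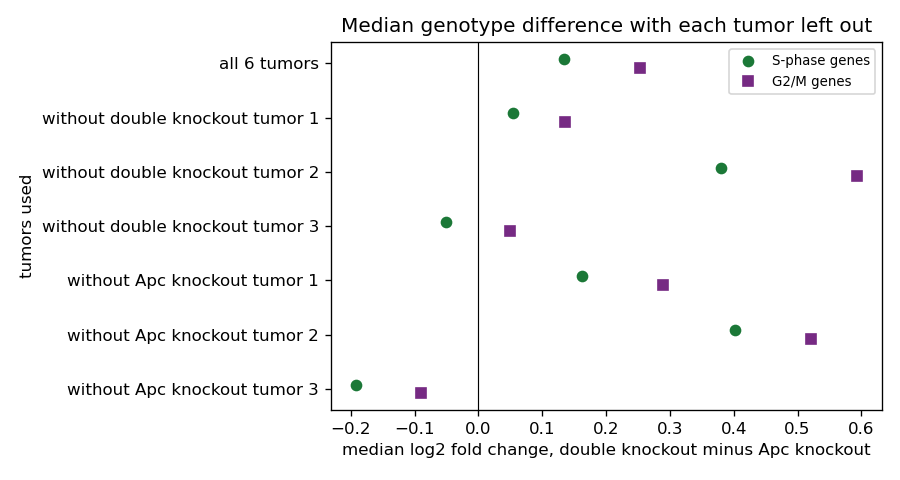
Median log2 fold change, double knockout minus Apc knockout, of the S-phase genes (green circles) and the G2/M genes (purple squares), with all 6 tumors and with each tumor left out (y axis). The S-phase median runs from −0.19 to 0.40 and the G2/M median from −0.09 to 0.59. Both are below 0 without Apc knockout tumor 3.

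Other genes of the cell cycle were taken as lists beside the members. Of 37 measured genes among 38 further replication genes, 25 had positive and 12 negative log2 fold changes (median 0.07), and of 42 further mitosis genes 37 were positive and 5 negative (median 0.20). None passed the adjusted threshold. Double knockout tumor 2 and Apc knockout tumor 3 held the lowest pair in 30 of the 37 (81.1%) and in 39 of the 42 (92.9%). Hmmr, a spindle protein with a log2 fold change of 0.79 (standard error 0.55), was at 6.80 in Apc knockout tumor 3 and at 8.17 to 9.21 in the other 5 tumors. Rfc3, a clamp loader subunit like Rfc4, was at 9.83, 9.67 and 9.92 in double knockout tumors, against 10.02, 10.45 and 10.07 in Apc knockout tumors. The groups of Rfc3 did not overlap, with a log2 fold change of −0.37 and an adjusted limma p of 0.821 (standard error 0.15), opposite in sign to that of Rfc4. Orc3, of the origin recognition complex, was at 9.99, 10.08 and 9.97 against 9.85, 9.90 and 9.80, without overlap and with a log2 fold change of 0.17 (standard error 0.09). The histone chaperone Asf1b (0.54), the Cdk1-inhibiting kinase Wee1 (0.34) and the kinetochore subunit Spc24 (0.39) had overlapping groups.

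Genes acting upstream of S phase were taken as lists too. Double knockout tumor 2 and Apc knockout tumor 3 were the lowest pair in 2 of 9 measured CDK inhibitors and pocket proteins (22.2%) and in 4 of 13 G1 cyclins, kinases and other E2Fs (30.8%). Their median log2 fold changes were 0.06 (5 positive, 4 negative) and 0.05 (8 positive, 5 negative), and 0 genes passed the adjusted threshold. Cdkn1c, the CDK inhibitor p57, was at 8.98, 8.65 and 9.36 in double knockout tumors, against 10.38, 9.53 and 10.47 in Apc knockout tumors. Every double knockout tumor was below every Apc knockout tumor, with a log2 fold change of −1.13 and an adjusted limma p of 0.821 (standard error 0.30). Cdkn1c is on the list of genes that the study picked from these arrays, so its difference is not independent evidence. With each tumor left out it ran from −1.43 to −0.96. The retinoblastoma gene Rb1 (0.34), the inhibitor Cdkn2c (0.42), cyclin D3 gene Ccnd3 (0.24), E2f4 (0.17) and E2f5 (0.25) had overlapping groups.

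Markers of other cells moved in the same tumor as some of the low values. In double knockout tumor 2 the score of 10 differentiated colonocyte markers was 1.61, that of 9 smooth muscle markers 1.62 and that of 10 crypt stem and Wnt target genes −1.71. In the other 5 tumors these scores ran from −0.92 to 0.11, from −0.73 to −0.05 and from 0.11 to 0.55. Not every marker followed the score of its list. The colonocyte markers Slc9a3 (8.27) and Guca2b (10.09) had their lowest value in double knockout tumor 2. The epithelial marker Cdx2 was at 8.24 in that tumor, against 10.08 to 11.18 in the others. The summed linear signal of the colonocyte markers was 8977 to 49080 in double knockout and 10053 to 24297 in Apc knockout tumors, with 7 of 10 log2 fold changes positive. For smooth muscle it was 4641 to 20054 and 4310 to 6727, with 8 of 9 positive, and for the crypt stem and Wnt genes 6424 to 25590 and 30015 to 36248, with 9 of 10 negative. Apc knockout tumor 3, the lowest tumor in most members, had scores of −0.09, −0.05 and 0.21 for these lists and of −0.27 for 8 epithelial markers, whose scores in the other tumors ran from −0.05 to 0.15. The summed signal of the epithelial markers was 50931 to 61965 in double knockout and 47832 to 55655 in Apc knockout tumors, with 6 of 8 positive. No marker of these 4 lists was at 0 or below the 20th percentile of signal. For fibroblast, endothelial, neutrophil, macrophage, T cell and B and plasma cell markers, scores were −0.09 to 1.04 in double knockout tumor 2, highest for B and plasma cells, and −0.29 to 0.23 in Apc knockout tumor 3. Of the 5 measured B and plasma cell markers, 2 had a mean below the 20th percentile of signal. The part of all these cells in the levels of the replication and mitosis genes was not tested.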

How the data were processed

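RNA from 3 double knockout and 3 Apc knockout colon tumors, taken by microdissection, was profiled on Affymetrix Mouse Gene 1.0 ST arrays, 1 per sample. The authors processed the scans by RMA (GeneSpring GX). The values deposited by the authors are log2 signals after background correction, quantile normalization across the arrays and a summary of each probe set. Quantile normalization gives every array nearly the same distribution, so a shift of all genes in a tumor would not be seen. For RMA no version is named, and for the annotation no build, in the sources used here. Precision is limited by having 3 arrays a group.

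Probe sets were named through the platform's probe-gene table. Of 35556 sets, 21789 had 1 symbol, 1621 had several and 12146 had none. Members were matched by symbol on sets with 1 symbol, and the set with the highest mean was used. Ccnb1 and Cdkn1a had no such set here and were not analysed, and 1 further gene of the lists is not reported here. Named sets whose mean reached the 20th percentile of all sets (5.88), 19506 in number, were tested by lmFit and eBayes of limma 3.58.1 under R 4.3.3, two-sided, with Benjamini-Hochberg adjustment over all of them and a threshold of 0.05. All 49 measured members passed the filter. Scores, medians and promoter matches were computed in Python 3.11.15 with pandas 2.3.3. The fit was also run on simulated data in which probe sets vary independently, which does not speak for genes that move together across tumors. Log2 signals of different probe sets were not compared as levels.

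The members and lists were chosen with earlier results of these data known, so counts and medians over them carry no test. Values of every tumor are given for the 3 members of each role with the smallest unadjusted limma p and for Mki67, Pcna, Top2a and Mcm2. Of each list of other cell cycle genes, the 3 with the smallest p are named. Alternatives were no filter and a 40th percentile filter (7.15), median centring, a further quantile normalization, eBayes with trend and robust settings, the methods' t-test, averaging the probe sets of a gene, the replicate number as a block, Ccna2 among the G2/M genes, the median in place of the mean in a score, and each tumor left out.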

Additional observations from a re-analysis of the deposited data

How the results depend on the processing

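With 3 tumors a group, single tumors set the sign of the genotype difference. With each tumor left out, the S-phase median log2 fold change ran from −0.192 to 0.402, the G2/M median from −0.089 to 0.593 and the number of members higher at an unadjusted p under 0.05 from 0 to 2. That number was 0 under the methods' t-test, which called 409 of all 19506 sets higher at that level. Without double knockout tumor 2 the 1 member so called was Cenpf and not E2f2. No other tested setting moved these medians across 0, and 0 probe sets had an adjusted p under 0.05 in limma under every setting tried. At an unadjusted p under 0.05, limma called 238 to 710 sets higher and 439 to 1006 lower with a tumor left out. Of 36 named genes, 14 changed sign with a tumor left out and 0 otherwise. Their log2 fold changes ran from −0.07 to 0.55 for Mcm6, −0.09 to 0.52 for Mcm5, −0.10 to 0.40 for Cdc6, −0.22 to 0.32 for Mcm2, −0.17 to 0.33 for Gins2, −0.22 to 0.31 for Pcna, −0.01 to 0.62 for Tyms, −0.19 to 0.74 for Rrm2, −0.21 to 0.48 for Rrm1, −0.01 to 0.44 for Ccnb2, −0.10 to 0.68 for Plk1, −0.19 to 0.45 for Foxm1, −0.09 to 0.62 for Top2a and −0.01 to 0.59 for Cdc20. All 14 changed sign without Apc knockout tumor 3. The other 22 named genes kept their sign in these fits, at 0.05 to 0.61 for Mki67, 0.16 to 0.77 for Kif23, 0.11 to 0.75 for Kif11, 0.06 to 0.73 for Rfc4, 0.06 to 0.58 for Pola1, 0.05 to 0.73 for Ccna2, 0.04 to 0.61 for Cenpf, 0.02 to 0.61 for Bub1b, 0.22 to 0.93 for Ccne2, 0.21 to 1.20 for Hmmr, 0.20 to 0.81 for Asf1b, 0.10 to 0.63 for Spc24, 0.14 to 0.63 for Cdkn2c, 0.18 to 0.49 for Wee1, 0.13 to 0.49 for Rb1, 0.14 to 0.30 for Ccnd3, 0.16 to 0.32 for E2f5, 0.12 to 0.24 for E2f4, 0.13 to 0.19 for Orc3, 0.42 to 0.93 for E2f2, −1.43 to −0.96 for Cdkn1c and −0.45 to −0.23 for Rfc3. Same-numbered tumors of the genotypes did not deviate together (correlations −0.20, −0.07 and 0.09). The labels do not say that the numbers pair the mice, and 3 such correlations cannot exclude it. With the number as a replicate block, 0 sets passed the adjusted threshold, and the S-phase minus G2/M difference was −0.09. At an unadjusted p under 0.05, 1 member was higher and 0 were lower, beside 421 sets higher and 929 lower of all 19506. The block brought Cdkn2c (0.42) past that level. Rfc3 was past an unadjusted p of 0.05 with all tumors but not under the block, under median centring or in 5 of the 6 fits with a tumor left out.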
